A study of Mus musculus with 6 samples.

Results

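The receptors described here are the vomeronasal type 2 receptors (V2Rs) numbered Vmn2r28 to Vmn2r79, which lie in several groups on mouse chromosome 7. They were defined by the platform's gene symbol, and the range was chosen with earlier results of these data known. Of the 52 numbers in the range, 39 had a probe set that names a single gene, out of 22180 genes measured in this way. The numbers were read in 3 blocks, with 13 measured genes in 28 to 52, 11 in 53 to 64 and 15 in 65 to 79. A further 12 numbers (Vmn2r31, Vmn2r34, Vmn2r36, Vmn2r39, Vmn2r40, Vmn2r41, Vmn2r42, Vmn2r43, Vmn2r46, Vmn2r47, Vmn2r48 and Vmn2r50) were named only by probe sets that list several genes, and Vmn2r64 was named by none. All 39 measured genes matched the RefSeq gene table by both Entrez identifier and symbol.

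RNA came from the vomeronasal organ (VNO), the chemosensory organ at the base of the nasal septum, taken from mice at postnatal day 17. One group of 3 samples was wild-type and the other group of 3 was AP-2e null, that is, without a working copy of the transcription factor AP-2e, whose gene is Tfap2e. Each sample was hybridised to 1 Affymetrix whole-transcript array, and the values are log2 signals, so a difference of 1 is a doubling. The labels name neither the strain, the null allele, the sex nor how many animals made up a sample, so p-values measure the spread between samples. The comparison asked which transcripts of the organ differ between AP-2e null and wild-type mice.

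V2Rs are receptors coupled to G proteins, with a long extracellular part that binds peptide and protein cues carried in urine, tears and saliva. They are made by the basal vomeronasal neurons, which also use the G protein subunit Gnao1. Most V2Rs are used by small sets of neurons together with a broadly expressed co-receptor of family C, Vmn2r1 to Vmn2r7. AP-2e is known from basal neurons, and the apical neurons use V1R receptors and the subunit Gnai2 instead. Many V2Rs arose by recent gene duplication and are close to identical in sequence, so a probe set can bind the transcripts of several of them, and the signal of any single receptor is uncertain to that extent.

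The sequence upstream shows how alike these genes can be. Vmn2r33, the receptor with the highest wild-type signal of the lowest block, is shown with the 250 bases before its annotated start, read on the minus strand at chr7:7566787-7567036 (RefSeq, GRCm38.p6, 5′ to 3′). The same 250 bases lie before Vmn2r31 and Vmn2r38. Vmn2r29 (minus strand, chr7:7247329-7247578) and Vmn2r35 (minus strand, chr7:7819868-7820117) are shown because their upstream sequences are 96.8% identical while their own probe sets differed between the genotypes by -0.31 and -3.60, although Vmn2r29 had little wild-type signal (mean 3.93). Capitals in this pair mark the 8 positions that differ between the genes; the pair was chosen after its values were seen.
Vmn2r33: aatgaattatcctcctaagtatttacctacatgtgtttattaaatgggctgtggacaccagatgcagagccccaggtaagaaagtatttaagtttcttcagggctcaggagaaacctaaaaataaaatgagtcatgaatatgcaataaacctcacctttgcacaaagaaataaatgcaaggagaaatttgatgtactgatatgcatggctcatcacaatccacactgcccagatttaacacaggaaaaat
Vmn2r29: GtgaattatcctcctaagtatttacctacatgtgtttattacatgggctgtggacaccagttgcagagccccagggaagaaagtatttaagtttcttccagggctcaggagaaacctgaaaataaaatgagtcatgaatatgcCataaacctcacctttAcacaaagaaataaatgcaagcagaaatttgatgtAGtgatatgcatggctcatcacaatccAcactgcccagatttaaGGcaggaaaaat
Vmn2r35: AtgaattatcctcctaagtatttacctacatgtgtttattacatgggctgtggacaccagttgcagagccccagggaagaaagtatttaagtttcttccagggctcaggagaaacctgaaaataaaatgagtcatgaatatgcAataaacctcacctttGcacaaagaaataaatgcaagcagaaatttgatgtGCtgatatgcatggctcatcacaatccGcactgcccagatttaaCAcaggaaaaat

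The 6 arrays had medians between 4.997 and 5.079 over all probe sets. Wild-type replicate 3 had the lowest mean correlation with the other arrays, 0.973 against 0.978 to 0.981. AP-2e null replicate 1 stood apart in the X-inactivation transcript Xist, at 10.64 where the other 5 arrays lay between 3.55 and 3.58. In the Y-linked gene Uty it read 2.56, where the others lay between 6.94 and 7.62. This is the pattern of a female sample beside male ones, and no wild-type sample had it. Sex was no covariate of the fit, and whether it has a part in the differences was not tested. Tfap2e itself had signals of 6.46, 6.76 and 6.92 in wild-type and 5.97, 6.09 and 6.04 in AP-2e null samples. That difference, -0.68 (SE 0.13), did not pass in limma (adjusted p = 0.431), although the genotypes did not overlap. The labels do not say which part of Tfap2e the null allele removes, and whether this probe set lies within that part was not tested. The other AP-2 genes, Tfap2a to Tfap2d, differed by -0.03 to 0.15, and 0 of the 5 AP-2 genes passed, with Tfap2e alone at an unadjusted p under 0.05. Omp, a protein of mature sensory neurons, had a mean of 10.11 ± 0.32 (SD, n = 3) in wild-type, and Gnao1 had 10.53 ± 0.21. These signals show neurons in the samples and do not tell the VNO from other sensory tissue. Stoml3, a marker of main olfactory neurons, also read 8.73 to 10.51 on the wild-type arrays. The tissue label itself was not tested.

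V2R signal from these genes was lower in AP-2e null organs. Of the 39 receptors, 38 had a lower mean in AP-2e null samples, and the median difference was -2.15 against -0.0005 over all genes tested. In limma, 16 receptors (41.0%) fell past an adjusted p of 0.05 over all genes and 0 rose, where the same rule called 48 genes, 0.216% of all tested, lower. No receptor had an unadjusted p under 0.05 in the higher direction either. The 2 genotypes did not overlap, with every AP-2e null array below every wild-type array, in 35 of the 39, against 3.64% of all genes. An unadjusted p under 0.05 in the lower direction was likewise reached by 35, against 2.49% of all genes. In RNA of a whole organ, fewer cells of a type and less RNA per cell cannot be told apart.

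The 16 receptors that fell were Vmn2r30, Vmn2r32, Vmn2r33, Vmn2r35, Vmn2r37, Vmn2r38, Vmn2r44 and Vmn2r49 in the lowest block, Vmn2r56 and Vmn2r62 in the middle block, and Vmn2r65, Vmn2r66, Vmn2r67, Vmn2r69, Vmn2r74 and Vmn2r76 in the highest. Their number changed with the arrays used. It was 7, 6 and 11 without wild-type replicates 1, 2 and 3, and 9, 7 and 10 without AP-2e null replicates 1, 2 and 3. The receptors that passed whichever array was left out were 6 in number: Vmn2r30, Vmn2r32, Vmn2r33, Vmn2r44, Vmn2r67 and Vmn2r69. Of the 23 receptors that did not pass, 19 had groups that did not overlap.

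**Figure D1:**
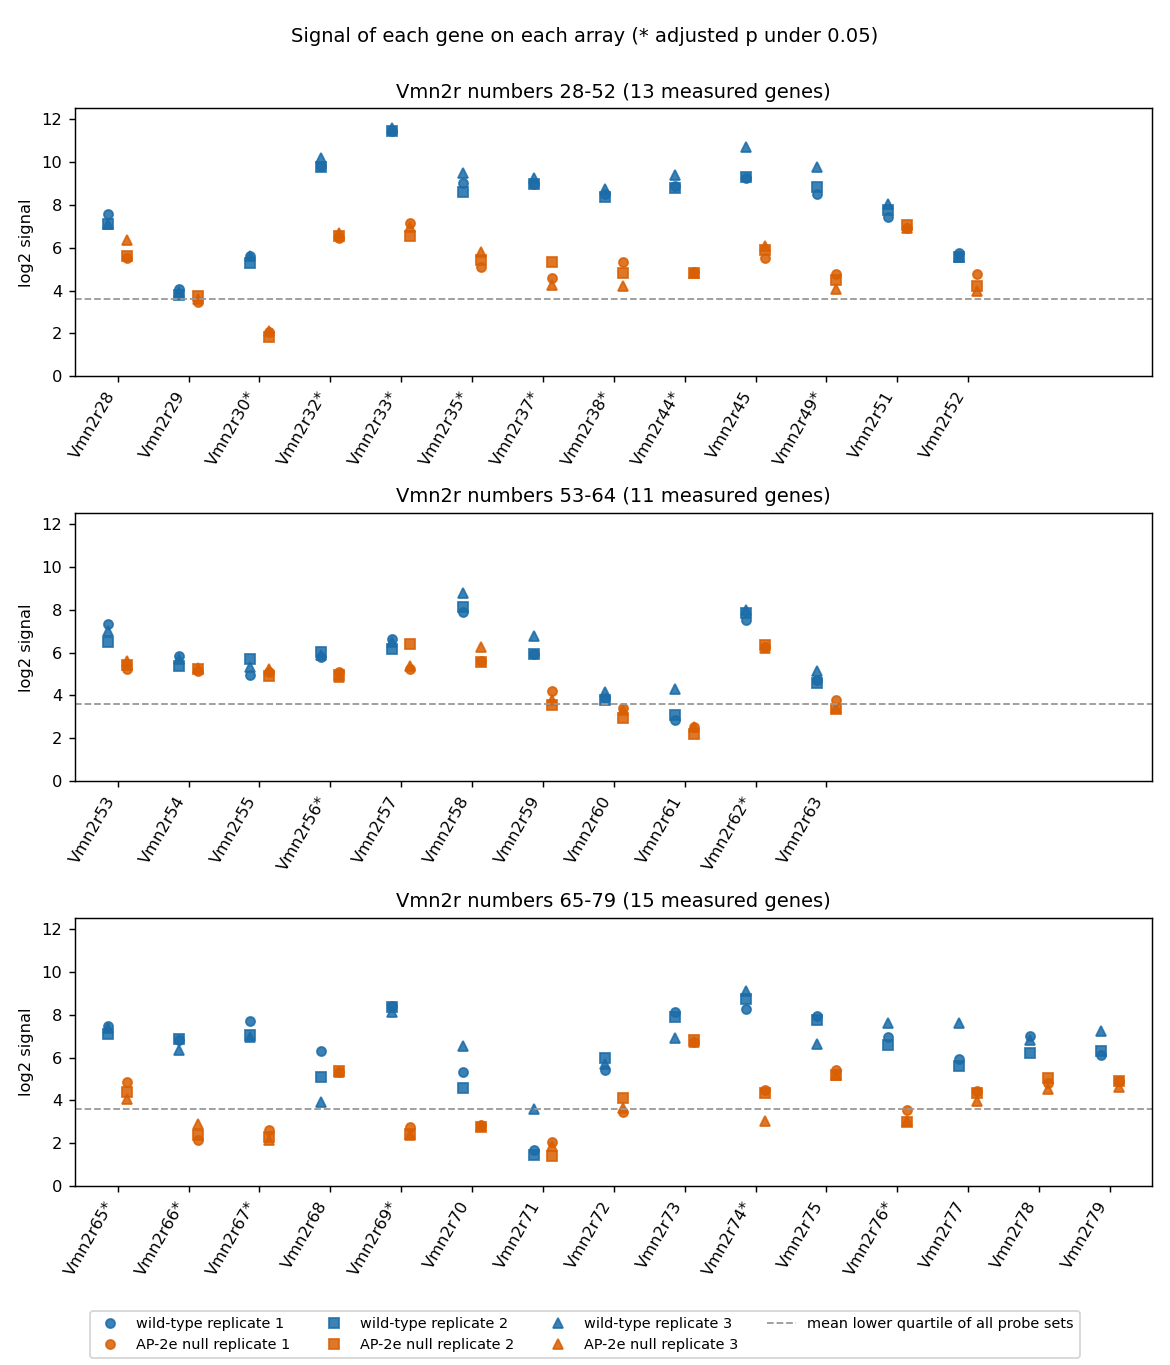
Log2 signal of each of the 39 receptors (horizontal axis, in number order) on each of the 6 arrays, wild-type and AP-2e null in different colours. The groups are separate in 35 receptors and overlap in Vmn2r55, Vmn2r57, Vmn2r68 and Vmn2r71.

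Receptors 28 to 52 showed the largest typical difference. All 13 were lower without overlap, 8 fell past the threshold (61.5%), and the median difference was -3.60, with 9 receptors more than 2 log2 units lower. The block's median signal was 8.51, 8.60 and 9.24 on the wild-type arrays and 5.10, 5.32 and 4.80 on the AP-2e null arrays. Its lowest wild-type array was therefore more than 3 log2 units above its highest AP-2e null array.

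Vmn2r33 had the largest difference of the block and also its highest wild-type signal. It read 11.44, 11.45 and 11.57 in wild-type and 7.16, 6.54 and 6.96 in AP-2e null samples. The wild-type arrays were within a narrow range and the AP-2e null arrays spread more, with group means of 11.49 ± 0.070 and 6.89 ± 0.31. The receptor fell by 4.60 (SE 0.16), which is 24.3-fold, with an adjusted p of 0.000896 in limma.

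Vmn2r49 read 8.51, 8.83 and 9.77 in wild-type and 4.76, 4.51 and 4.07 in AP-2e null samples. Wild-type replicate 3 was the highest array and AP-2e null replicate 3 the lowest. The fall was 24.0-fold (difference -4.59, SE 0.36, limma adjusted p = 0.0155). The adjusted p was 0.0314 without wild-type replicate 3 and from 0.0795 to 0.183 without each of the other 5 arrays in turn. Vmn2r37 read 8.98, 8.99 and 9.24 in wild-type and 4.57, 5.32 and 4.27 in AP-2e null samples. All wild-type arrays were close together, and AP-2e null replicate 2 stood highest of its group. It fell 20.4-fold (difference -4.35, SE 0.28, limma adjusted p = 0.00780). The call was kept without AP-2e null replicates 2 and 3 and lost without each of the other 4 arrays, where the adjusted p was 0.0731 to 0.0924.

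Vmn2r44, whose upstream 250 bases differ from those of Vmn2r33 at 1 position, read 8.87, 8.77 and 9.38 in wild-type and 4.87, 4.84 and 4.80 in AP-2e null samples. The AP-2e null arrays lay within a very narrow range (SD 0.034). The fall was 18.0-fold (difference -4.17, SE 0.17, limma adjusted p = 0.00111). The other receptors of the block that fell were Vmn2r38 (-3.75), Vmn2r35 (-3.60), Vmn2r30 (-3.50) and Vmn2r32 (-3.37). Vmn2r30 had the lowest AP-2e null mean of the block, 2.01 ± 0.16, below 3.62, the mean lower quartile of all probe sets on an array.

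Of the 5 receptors in the block that did not pass, Vmn2r45 had a difference as large as those that did. It read 9.27, 9.28 and 10.71 in wild-type and 5.53, 5.88 and 6.09 in AP-2e null samples. Wild-type replicate 3 was 1.44 above the mean of the other wild-type arrays, and the difference of -3.92 had an SE of 0.43 (limma adjusted p = 0.0588). This call depended on the setting: Vmn2r45 passed in 6 of the 14 other settings, 1 of them without wild-type replicate 3, with an adjusted p of 0.0261 to 0.0408, and not in the other 8 (0.0583 to 0.442). The remaining 4 had differences of -1.44 (Vmn2r28), -1.31 (Vmn2r52), -0.79 (Vmn2r51) and -0.31 (Vmn2r29).

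Vmn2r51 and Vmn2r29 had the smallest differences of the block. Vmn2r51 read 7.45, 7.78 and 8.04 in wild-type and 6.90, 7.06 and 6.93 in AP-2e null samples, and the difference had a 95% interval from -1.18 to -0.41 (limma adjusted p = 0.537). Its AP-2e null mean, 6.96, was high for the block. Vmn2r29 read 4.08, 3.79 and 3.92 in wild-type and 3.49, 3.76 and 3.60 in AP-2e null samples, with an interval from -0.58 to -0.05 (limma adjusted p = 0.873). Both genotypes of Vmn2r29 were near the lower quartile of an array.

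**Figure D2:**
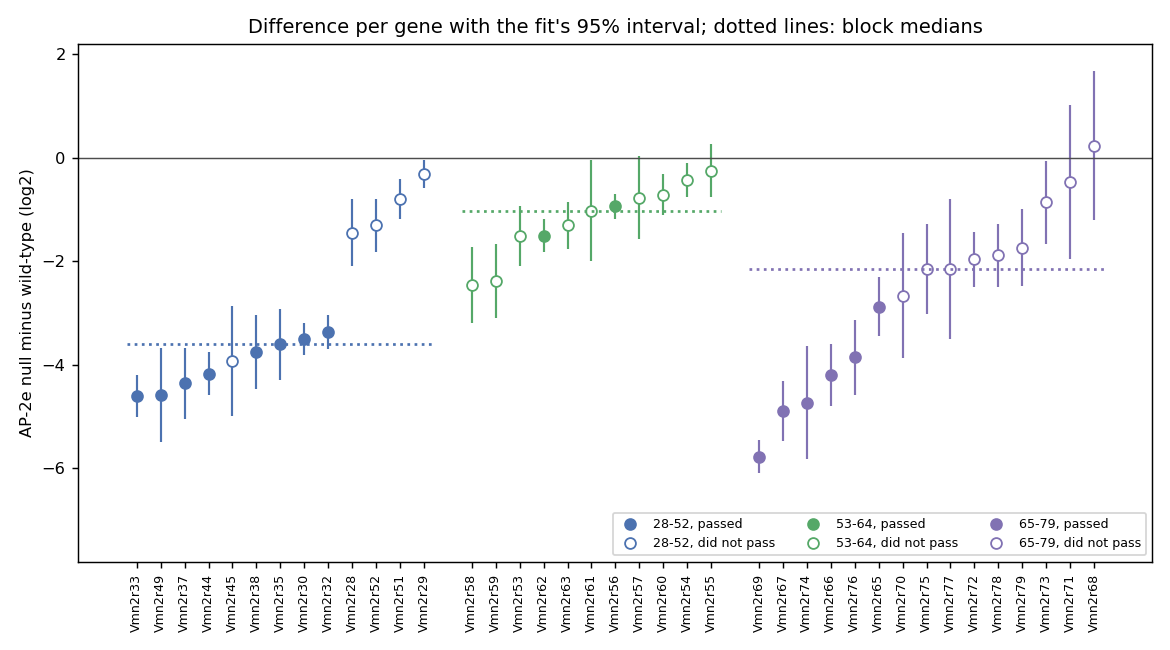
Difference between AP-2e null and wild-type (log2, vertical axis) for each receptor, sorted within its block, with the 95% interval of the limma fit; filled points passed the threshold and dotted lines mark the block medians of -3.60, -1.02 and -2.15. Intervals of Vmn2r55, Vmn2r57, Vmn2r68 and Vmn2r71 include 0.

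Probe sets that name several genes carried the receptors that had none of their own. There were 14 such sets with a gene in the range, all of them with genes from the lowest block, and 2 of them had identical values on every array. In the limma fit of all 41345 probe sets, 11 of the 14 fell past an adjusted p of 0.05, or 10 of 13 with the identical pair counted as 1, where 0.128% of all probe sets did. All 14 had a lower mean in AP-2e null samples, 13 of them without overlap, and the median difference was -3.75. Lower groups without overlap made up 3.64% of all genes, and this share was not taken over all probe sets. The shared sets have genes in common with one another, so they are not 13 separate measurements. The count of 11 became 4, 3 and 12 without wild-type replicates 1, 2 and 3, and 3 without each AP-2e null replicate in turn.

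The identical pair, one listing 17 genes and the other 8 (both including Vmn2r29, Vmn2r31, Vmn2r33, Vmn2r35, Vmn2r38, Vmn2r44 and Vmn2r46), read 11.06, 11.13 and 11.03 in wild-type and 6.95, 6.95 and 7.09 in AP-2e null samples. All 3 arrays of each genotype were close together. The fall was 16.8-fold (difference -4.07, SE 0.072, limma adjusted p = 0.000177). A set of 15 genes headed by Vmn2r34, which had no probe set of its own, read 9.67, 9.71 and 10.61 in wild-type and 5.94, 5.85 and 6.003 in AP-2e null samples. Here wild-type replicate 3 stood above the other arrays of its genotype, and the set fell by 4.06 (SE 0.27, limma adjusted p = 0.0161).

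Vmn2r39 and Vmn2r50 shared a set that read 7.72, 7.54 and 9.19 in wild-type and 5.60, 5.31 and 5.53 in AP-2e null samples. Its wild-type arrays spread widely, and the difference of -2.67 (SE 0.46) did not pass in limma (adjusted p = 0.414). The set shared by Vmn2r40 and Vmn2r41 had a difference of -2.91 and did not pass either (limma adjusted p = 0.0752). A set listing Vmn2r45 with Zfp772 and Gm45351, which are not V2Rs, read 5.24, 5.24 and 5.63 in wild-type and 5.21, 5.24 and 5.24 in AP-2e null samples. Its genotypes overlapped and the difference was -0.14 (limma adjusted p = 0.902).

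Own and shared probe sets could be set side by side for 11 receptors. Vmn2r29 differed by -0.31 on its own set and by -4.07 to -3.91 on the 4 shared sets that list it, all 4 of which fell. Vmn2r51 differed by -0.79 on its own set and by -4.06 to -3.66 on its 4 shared sets, all of which also fell. For the 8 receptors of this group that fell on their own sets, the own differences lay between -4.60 and -3.37 and all of their shared sets fell. Vmn2r45, which did not pass on its own set (-3.92), was listed by 7 shared sets, of which 6 fell. Shared sets list receptors with large differences beside Vmn2r29 and Vmn2r51, so they do not measure these 2 receptors apart from the rest.

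**Figure D3:**
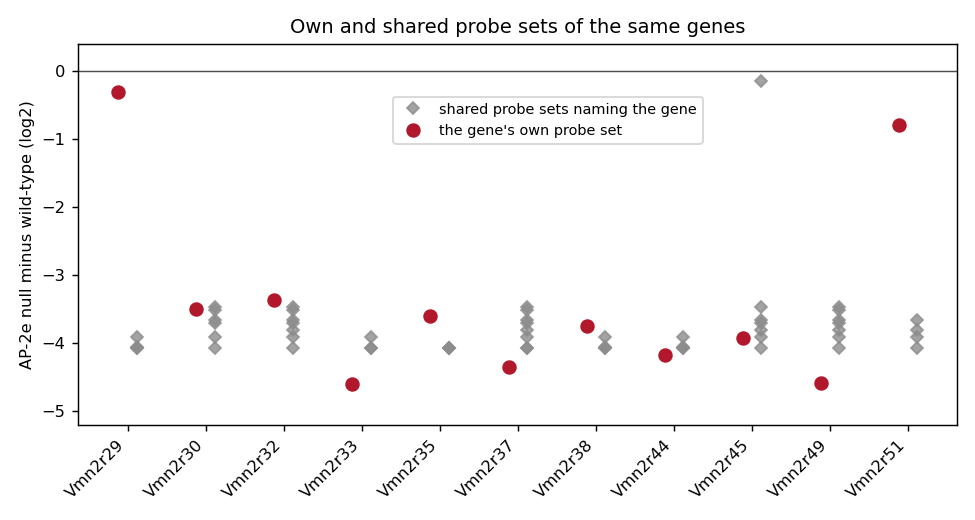
Difference between AP-2e null and wild-type (log2) on a receptor's own probe set and on each shared probe set that lists it, for the 11 receptors with both. The own sets of Vmn2r29 and Vmn2r51 lie far above their shared sets, and 1 of the 7 shared sets of Vmn2r45 lies near 0, at -0.14.

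Receptors 53 to 64 had smaller differences. All 11 were lower in mean, 9 without overlap, 2 fell past the threshold (18.2%), and the median difference was -1.02. The block's median signal was 5.83, 5.94 and 5.91 on the wild-type arrays and 5.11, 4.95 and 5.23 on the AP-2e null arrays, so the arrays of the 2 genotypes were separate but near each other. RefSeq places 606 protein-coding genes between Vmn2r56 and Vmn2r57, which divides these numbers into 2 places on the chromosome. Vmn2r53 to Vmn2r56 had a median difference of -0.68 over 4 receptors, and Vmn2r57 to Vmn2r63 of -1.30 over 7.

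Vmn2r62 read 7.51, 7.86 and 7.98 in wild-type and 6.28, 6.35 and 6.22 in AP-2e null samples. Its AP-2e null arrays were close together (SD 0.065), and it fell 2.83-fold (difference -1.50, SE 0.13, limma adjusted p = 0.0221). Vmn2r56 read 5.79, 6.03 and 5.91 in wild-type and 5.11, 4.95 and 4.86 in AP-2e null samples. With the smallest SE of all 39 receptors, 0.097, it fell 1.91-fold (limma adjusted p = 0.0469). The block's count was 1, Vmn2r62, without wild-type replicate 1 and 0 without each of the other 5 arrays in turn, where the adjusted p of Vmn2r62 was 0.0990 to 0.220. The adjusted p of Vmn2r56 was 0.145 to 0.363 without each of the 6 arrays.

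The larger differences of the block did not pass in the fit of all 6 arrays as deposited. Vmn2r58, with the highest wild-type mean of the block (8.26 ± 0.46), read 7.90, 8.11 and 8.78 in wild-type and 5.59, 5.58 and 6.26 in AP-2e null samples. Replicate 3 was the highest array in both genotypes, and the difference was -2.45 (SE 0.30, limma adjusted p = 0.0869). Vmn2r59 read 5.94, 5.94 and 6.78 in wild-type and 4.20, 3.57 and 3.77 in AP-2e null samples. The genotypes were clearly apart, with a difference of -2.37 (SE 0.29) and the same adjusted p. Vmn2r58 passed with median centring (limma adjusted p = 0.0436) and with the replicate number as a block (0.0243), and Vmn2r59 with array weights (0.0484). In the other settings their adjusted p was 0.0563 to 0.575 and 0.0505 to 0.488.

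Vmn2r54 and Vmn2r55, whose upstream sequences are 96.0% identical, had the smallest differences. Vmn2r54 read 5.83, 5.37 and 5.72 in wild-type and 5.13, 5.22 and 5.28 in AP-2e null samples, a difference of -0.43. Vmn2r55 read 4.95, 5.72 and 5.34 in wild-type and 5.11, 4.92 and 5.23 in AP-2e null samples, so the genotypes overlapped. Its difference of -0.25 had a 95% interval from -0.76 to 0.27. The 5 receptors of the block not yet described had differences of -1.51 (Vmn2r53), -1.30 (Vmn2r63), -1.02 (Vmn2r61), -0.77 (Vmn2r57) and -0.71 (Vmn2r60).

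Receptors 65 to 79 held both the largest measured fall and the only higher mean. Of 15 receptors, 14 were lower in mean, 13 without overlap, and 6 fell past the threshold (40.0%). The median difference was -2.15, and the range from -5.77 to 0.23 was the widest of the 3 blocks. The block's median signal was 6.98, 6.57 and 6.90 on the wild-type arrays and 4.43, 4.35 and 3.63 on the AP-2e null arrays. AP-2e null replicate 3 was the lowest array of the block.

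Vmn2r69 had the largest measured difference of the 39 receptors. It read 8.42, 8.35 and 8.14 in wild-type and 2.77, 2.43 and 2.40 in AP-2e null samples. It fell by 5.77 (SE 0.13, limma adjusted p = 0.000277). Its AP-2e null signals were below the lower quartile of the arrays, so background limits this difference and its rank among large falls. Vmn2r67 read 7.71, 7.05 and 6.97 in wild-type and 2.61, 2.30 and 2.16 in AP-2e null samples. It too ended below the lower quartile, and the difference was -4.88 (SE 0.23, limma adjusted p = 0.00198).

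Vmn2r74, the receptor with the highest wild-type mean of the block (8.70 ± 0.42), read 8.26, 8.72 and 9.11 in wild-type and 4.50, 4.35 and 3.05 in AP-2e null samples. AP-2e null replicate 3 was well below the other arrays of its genotype. The fall was 26.5-fold (difference -4.73, SE 0.44, limma adjusted p = 0.0304). The adjusted p was 0.0468 without AP-2e null replicate 3 and from 0.151 to 0.241 without each of the other 5 arrays in turn. Vmn2r66 read 6.83, 6.89 and 6.34 in wild-type and 2.15, 2.39 and 2.91 in AP-2e null samples, and fell by 4.20 (SE 0.24, limma adjusted p = 0.00517), also to below the lower quartile. Its adjusted p was 0.0691, 0.0742 and 0.0862 without wild-type replicates 1 and 2 and AP-2e null replicate 2, and the call was kept without each of the others. Vmn2r76 (-3.85) and Vmn2r65 (-2.87) were the other receptors of the block that fell.

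Vmn2r68 and Vmn2r71 were the exceptions of the block. Vmn2r68 read 6.30, 5.09 and 3.93 in wild-type and 5.34, 5.35 and 5.34 in AP-2e null samples. Its wild-type arrays lay on both sides of the AP-2e null arrays, which were almost equal, and the difference of 0.23 had a 95% interval from -1.20 to 1.67. Without wild-type replicate 3 the difference was -0.35. Vmn2r71 read 1.67, 1.45 and 3.58 in wild-type and 2.05, 1.39 and 1.85 in AP-2e null samples, all of them below the mean lower quartile of 3.62. Its difference was -0.47 with an interval from -1.95 to 1.01, and 0.21 without wild-type replicate 3.

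Upstream sequences of these exceptions are shown beside those of their closest measured relatives, pairs chosen after their values were seen. Vmn2r69 (minus strand, chr7:85415677-85415926) and Vmn2r71 (plus strand, chr7:85615212-85615461) are 90.5% identical over the 250 bases, with differences of -5.77 and -0.47, the second from a probe set below the lower quartile. Vmn2r68 (minus strand, chr7:85237705-85237954) and Vmn2r72 (minus strand, chr7:85754982-85755231) are 94.0% identical, with differences of 0.23 and -1.96, and neither of them passed with all arrays. Capitals mark bases that differ from the partner or have no partner base in the alignment.
Vmn2r69: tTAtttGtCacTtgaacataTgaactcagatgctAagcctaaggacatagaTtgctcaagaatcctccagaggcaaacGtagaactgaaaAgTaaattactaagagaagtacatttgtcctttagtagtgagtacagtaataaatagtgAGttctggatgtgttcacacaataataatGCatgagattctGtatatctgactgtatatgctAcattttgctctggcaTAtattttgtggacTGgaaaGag
Vmn2r71: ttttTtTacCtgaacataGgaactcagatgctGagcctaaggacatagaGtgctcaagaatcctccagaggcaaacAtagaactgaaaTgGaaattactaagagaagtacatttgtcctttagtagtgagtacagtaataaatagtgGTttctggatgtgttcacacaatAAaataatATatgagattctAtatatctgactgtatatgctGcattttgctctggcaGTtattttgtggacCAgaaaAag
Vmn2r68: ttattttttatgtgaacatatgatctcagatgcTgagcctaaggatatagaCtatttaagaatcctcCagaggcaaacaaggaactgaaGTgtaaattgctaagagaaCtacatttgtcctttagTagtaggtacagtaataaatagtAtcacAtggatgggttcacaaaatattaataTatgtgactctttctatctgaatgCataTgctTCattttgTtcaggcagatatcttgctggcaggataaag
Vmn2r72: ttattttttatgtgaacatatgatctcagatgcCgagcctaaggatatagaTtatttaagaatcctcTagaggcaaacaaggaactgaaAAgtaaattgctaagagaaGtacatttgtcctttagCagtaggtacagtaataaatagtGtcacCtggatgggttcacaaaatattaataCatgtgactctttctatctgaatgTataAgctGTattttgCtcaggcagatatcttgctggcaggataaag

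The other 7 receptors of the block were lower without overlap and did not pass. Their differences were -2.67 (Vmn2r70), -2.15 (Vmn2r75 and Vmn2r77), -1.96 (Vmn2r72), -1.88 (Vmn2r78), -1.73 (Vmn2r79) and -0.86 (Vmn2r73). Vmn2r70 read 5.32, 4.56 and 6.53 in wild-type and 2.83, 2.77 and 2.81 in AP-2e null samples, so a wide wild-type spread met an almost constant AP-2e null signal. Vmn2r72 (limma adjusted p = 0.0589) passed in 5 of the 14 other settings, with an adjusted p of 0.0226 to 0.0408, and not in the other 9 (0.0586 to 0.386). Vmn2r75 passed only without wild-type replicate 3 (limma adjusted p = 0.0148), against 0.303 with all arrays. Vmn2r73 kept an AP-2e null mean of 6.77 ± 0.045, a high value for the block.

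The spread of the wild-type arrays differed between the blocks. Wild-type replicate 3 was the highest of its genotype for 10 of 13 receptors in the lowest block and 6 of 11 in the middle block, and the lowest for 0 of either. In the highest block it was the highest for 6 and the lowest for 6 of 15. It lay more than 1 log2 unit above the mean of the other wild-type arrays for 7 receptors (Vmn2r45, Vmn2r49, Vmn2r61, Vmn2r70, Vmn2r71, Vmn2r77 and Vmn2r79) and more than 1 below for 3 (Vmn2r68, Vmn2r73 and Vmn2r75). Over all genes, the same gaps were seen in 0.753% and 1.24%. In the highest block 8 of 15 receptors had a wild-type SD over 0.5, against 1 with such an AP-2e null SD.

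**Figure D4:**
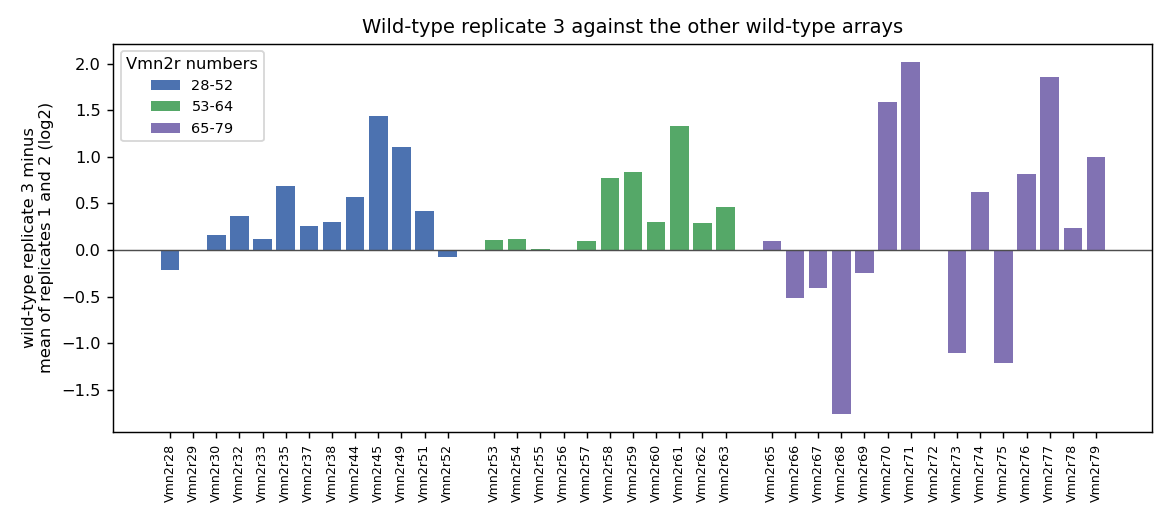
Log2 signal of wild-type replicate 3 minus the mean of wild-type replicates 1 and 2, for each receptor in number order. Bars of the blocks 28 to 52 and 53 to 64 lie mostly above 0, and those of 65 to 79 lie on both sides, from -1.76 (Vmn2r68) to 2.02 (Vmn2r71).

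Between the blocks, the difference in size was described and not tested. Receptors with a high wild-type mean tended to have the larger falls, with a Spearman correlation of -0.704 between wild-type mean and difference over the 39 receptors. Within the blocks, in number order, it was -0.692, -0.591 and -0.621 (n = 13, 11 and 15). The wild-type mean enters the difference, and the receptors share the same 6 arrays, so this is a description only. In AP-2e null samples, 11 of the 39 receptors had means below the lower quartile of an array, against 2 (Vmn2r61 and Vmn2r71) in wild-type. For receptors that ended there, background signal limits how large a fall can be read.

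Genes that lie between the receptors and are not V2Rs were read beside them. In the stretch from Vmn2r28 to Vmn2r52, 0 of 35 measured genes passed in limma in either direction, a count that the share of 0.216% lower calls among all genes would also give. Their median difference was 0.10, from -0.48 (Gm45351) to 1.08 (the odorant receptor Olfr1350). At an unadjusted p under 0.05, 1 of the 35 was lower and 5 were higher, beside 2.49% and 1.9% of all genes. Between Vmn2r57 and Vmn2r63, 0 of 8 passed, 0 had an unadjusted p under 0.05, and the median was 0.09. Between Vmn2r65 and Vmn2r79, 0 of 16 passed and 3 had an unadjusted p under 0.05 in the lower direction, beside 2.49% of all genes. The median was -0.19, with the odorant receptor Olfr293 at -1.45, from 3.55 to 2.11. Genes of this stretch had wild-type means of at most 3.75 (Olfr299), near or below the mean lower quartile of 3.62. Signals this dim say little about change in these neighbours. The V2R pseudogene Vmn2r-ps60, which lies among Vmn2r57 to Vmn2r63, fell by 1.94 (SE 0.069, limma adjusted p = 0.000896). Its mean went from 5.47 to 3.54, a fall larger than that of either receptor that passed in its block, and ended below the mean lower quartile of 3.62. Another V2R pseudogene of this stretch, Vmn2r-ps54, was dim in both genotypes, with means of 3.06 and 2.47. It did not pass (difference -0.58, limma adjusted p = 0.873).

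Upstream sequences were alike within the lowest and the highest block, and not within the middle one. RefSeq windows were found for 47 of the 52 numbers, and in 44 of them the annotated start is an ATG, against 5.83% of all 32851 windows, so for these genes the window is the sequence before the start codon and not before a mapped transcript start. Within 28 to 52 the median pairwise identity was 83.3%, and 91 of 253 pairs were over 90% identical. Within 65 to 79 the median was 78.7%. Within 53 to 64 it was 48.4%, with 4 of 55 pairs over 90% identical, a median that lies among those between blocks, 46.8% (28 to 52 with 53 to 64), 48.8% (28 to 52 with 65 to 79) and 51.99% (53 to 64 with 65 to 79). No pair from different blocks was over 56.8% identical.

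The differences of receptors with near-identical upstream sequences were set side by side. Among the 40 measured pairs over 90% identical in 28 to 52, the gap between the differences of a pair had a median of 0.85, from 0.02 to 4.29, beside a median of 1.12 over all 78 measured pairs. In 53 to 64 the 4 such pairs had gaps from 0.18 to 0.74 with a median of 0.37, beside 0.74 over all 55 pairs. In 65 to 79 the 3 such pairs had gaps from 0.14 to 5.30 with a median of 2.19, beside 2.03 over all 78 pairs. The widest gaps involve Vmn2r29 and Vmn2r71, whose wild-type means of 3.93 and 2.23 were near or below the mean lower quartile of 3.62. Probe sets this dim cannot show a large fall, so these gaps do not measure how unlike the receptors responded. Wide gaps were also seen where the signal was higher. Vmn2r51 (wild-type mean 7.76) differed by -0.79 and Vmn2r49 by -4.59, with upstream sequences 92.9% identical. Vmn2r68 (wild-type mean 5.11) differed by 0.23 and Vmn2r72 by -1.96, at 94.0% identity. The pairs share genes and arrays, and no test was made.

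A motif of AP-2 proteins, GCCNNNGGC, which reads the same on both strands, was searched in the window from 250 bases before to 50 after each start. It occurred in 2 of the 47 windows (4.26%), those of Vmn2r66 (GCCTAAGGC, 214 bases before the start) and Vmn2r75 (GCCCAAGGC, 205 bases before the start). Among the other V2R windows it occurred in 7 of 69, among V1R windows in 0 of 205, and in 16.6% of all windows. The annotated start is an ATG in 93.6% of the range's windows and in 5.83% of all. The share over all windows is therefore from windows of an unlike kind. Vmn2r66 fell (-4.20), and Vmn2r75 (-2.15) did not pass with all arrays. The other windows of the range lack these letters. They include receptors that fell, such as Vmn2r33, Vmn2r67 and Vmn2r69, and receptors that did not, such as Vmn2r29 and Vmn2r68. A match or its absence in this window is a description of the sequence alone.

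V2Rs outside the range were lower as well. Of 70 other measured V2R genes, 26 fell (37.1%), 64 had a lower mean, and the median difference was -1.73. Among the family C co-receptors, Vmn2r1 to Vmn2r7, 4 of 7 fell, and all 7 were lower in mean, from -2.97 (Vmn2r5) to -0.97 (Vmn2r3). The H2-Mv genes, which encode molecules of the major histocompatibility complex found in basal neurons, were lower in mean in 9 of 9. Of them 1 passed, H2-M1 (difference -2.82, limma adjusted p = 0.0271). All 9 H2-Mv genes and all 7 co-receptors were lower at an unadjusted p under 0.05, against 2.49% of all genes. The difference between these groups and the receptors 28 to 79 was not tested.

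Markers of cell types were measured beside the receptors. The 5 basal markers that are no receptors had a median difference of -0.50 and 0 passed, with 4 lower at an unadjusted p under 0.05. Their mean signal was 9.47 to 9.70 on the wild-type arrays and 8.95 to 9.05 on the AP-2e null arrays. Calr4, a calreticulin of basal neurons, differed by -1.10, Gnao1 by -0.68, Kirrel3 by -0.50, Robo2 by -0.49 and Gng8 by 0.06. The 7 apical markers had a median difference of 0.08, with 0 passed, 1 lower and 2 higher at an unadjusted p under 0.05, and list means of 9.08 to 9.23 in wild-type and 9.14 to 9.22 in AP-2e null samples. The 8 markers of mature vomeronasal neurons had a median of -0.07, with 0 passed and 1 in each direction at an unadjusted p under 0.05, and list means of 9.15 to 9.26 and 9.09 to 9.16.

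Of the other lists, the 5 measured markers of immature neurons had a median difference of 0.005 and list means of 7.12 to 7.35 in wild-type and 7.19 to 7.30 in AP-2e null samples. The 5 sustentacular markers had a median of -0.01 and list means of 5.90 to 6.89 and 5.42 to 6.79. The 3 measured markers of main olfactory neurons, which can enter with neighbouring tissue, had a median of 0.58 and list means of 5.48 to 7.94 and 6.05 to 7.58, so they spread widely within each genotype. In each of these 3 lists 0 genes passed in limma and 0 had an unadjusted p under 0.05. Whether the make-up of cells in the samples has a part in the receptors' differences was not tested.

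**Figure D5:**
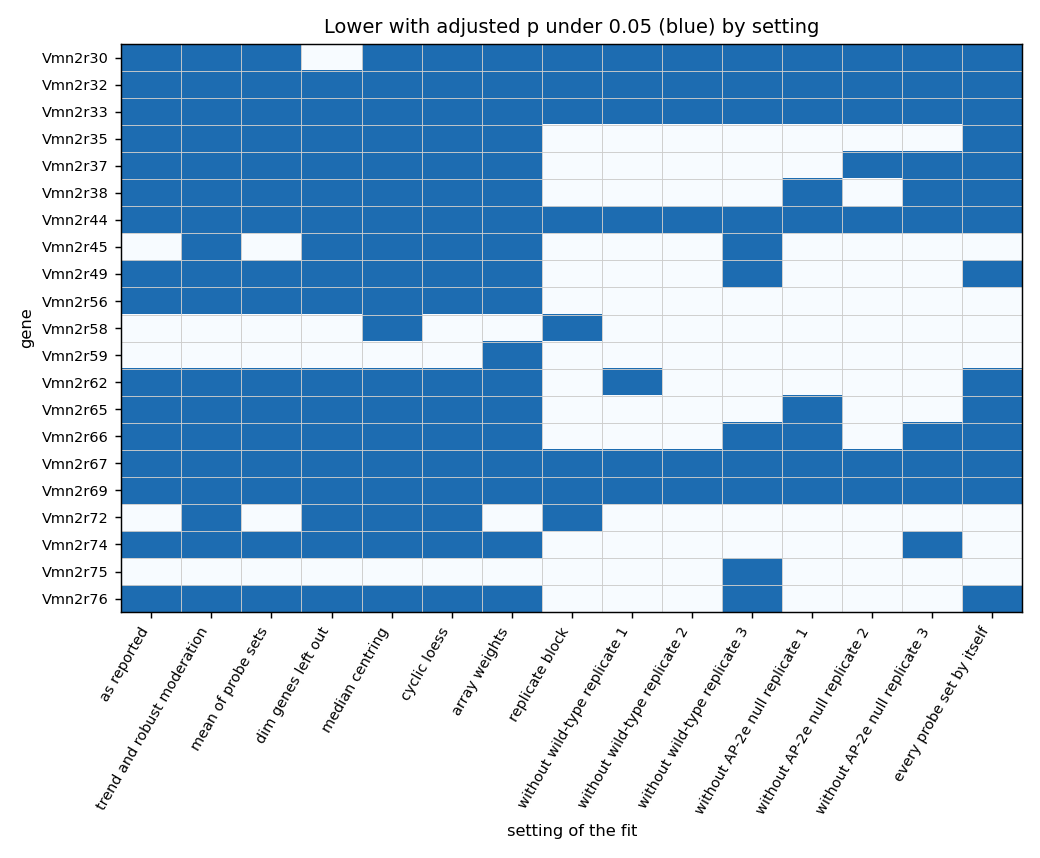
The 21 receptors that passed the threshold in at least 1 setting (filled cells: passed) under the analysis as reported and each of the 14 other settings; Vmn2r30 is empty where dim genes were left out because it was then not tested. Vmn2r32, Vmn2r33, Vmn2r44, Vmn2r67 and Vmn2r69 are filled throughout, and the settings that leave out an array or use the replicate block fill fewest.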

How the data were processed

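RNA of 3 wild-type and 3 AP-2e null vomeronasal organ samples was measured on 1 array each. The deposited values are log2 signals per probe set, which the authors made with RMA (background correction, quantile normalization, probe summary) and the Transcriptome Analysis Console, per the submitters' processing notes. For their versions and for the annotation's genome build, none is given in the sources used here.

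Of 41345 probe sets, 23521 name 1 gene, 1814 several and 16010 none. For each gene the 1-gene probe set with the highest mean was kept, which gave 22180 genes; each of the 39 receptors had only 1. No filter on dim genes was set. The genotypes were compared by 2-sided limma tests (version 3.58.1, R 4.3.3; lmFit, then eBayes) without covariates, with Benjamini-Hochberg adjustment over all genes and a threshold of 0.05; shared probe sets were taken from the same fit over all probe sets. The script was tested on simulated data. The number of arrays limits the precision. Errors are SD over 3 arrays or the fit's SE.

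The members and the gene lists were chosen with earlier results of these data known. Values per array are given by rule for 4 members with the largest falls among those that passed without overlap in each block (filled by the largest falls), the highest wild-type mean, and the 2 highest differences; Vmn2r45 and Vmn2r70 were chosen after their values were seen. For shared sets the rule took the 3 largest falls and the 2 highest differences.

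Upstream sequences are RefSeq windows (GRCm38.p6). The 250 bases before each start were aligned end to end with Biopython 1.88 (match 1, mismatch -1, gap opening -3, extension -0.5). The gene table of the same assembly served for neighbours only. Other settings tried are given with the closing section. Plots were drawn with matplotlib 3.10.9.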

Additional observations from a re-analysis of the deposited data

How the results depend on the processing

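All 16 receptors that fell kept a lower mean in each of the 14 other settings that tested them (Vmn2r30 was not tested without dim genes). The genotypes of these 16 did not overlap, so only median centring and cyclic loess could have changed the sign. The other settings keep the difference as it was, or weight or leave out arrays of separate groups. Of the 39 receptors, 37 were lower in each setting, the exceptions being Vmn2r68 and Vmn2r71. Trend and robust moderation, the mean of probe sets, leaving out the dimmest 30% of genes, median centring, cyclic loess, array weights and every probe set by itself gave 14 to 19 receptors, against 16. With every probe set by itself, 1 receptor of 53 to 64 passed, against 2. With the replicate number as a block 8 receptors passed, of which 6 were among the 16: 4 in 28 to 52, 1 in 53 to 64 and 3 in 65 to 79, and 5 shared probe sets. Same-numbered samples deviated together with correlations of 0.04, 0.11 and 0.019, so the numbers were not taken to pair the samples. No wild-type sample correlated best with the AP-2e null sample of its own number. Of the AP-2e null samples, only replicate 2 correlated best with the wild-type sample of its number. Leaving out each array in turn gave 6 to 11 receptors, 4 to 6 in 28 to 52, 0 to 1 in 53 to 64, 2 to 5 in 65 to 79, and 3 to 12 shared probe sets.

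Means over the receptors of a block were -3.05, -1.20 and -2.66 in number order, where the medians were -3.60, -1.02 and -2.15. The median of 53 to 64 ranged from -1.30 to -0.94 when arrays were left out in turn, and that of 65 to 79 from -2.54 to -2.11. In 53 to 64 it was -1.22 without dim genes and -1.22 over receptors with a wild-type mean above the array median. The wild-type mean enters the difference, so choosing receptors by it favours larger falls and is no check of their size. The difference of Vmn2r68 was -0.20 with array weights and -0.35 to 0.83 when arrays were left out, and that of Vmn2r71 was -0.86 to 0.21. Causes of these changes were not tested, beyond the smaller number of samples when an array is left out. Signals near background limit the falls that can be read, and probes shared between near-identical receptors limit what is known of each one.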
